A study of Mus musculus with 2 samples.

Results

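A set of 8 genes for the movement of glucose and lactate across membranes was examined in differentiating mouse red cell precursors, taken as a named list and matched by symbol: the glucose transporters Slc2a1, Slc2a3, Slc2a4 and Slc2a8, the monocarboxylate transporters Slc16a1 and Slc16a3, their relative Slc16a10, and Bsg, which encodes the chaperone basigin. All 8 were among the 43346 Ensembl genes in the tables. The cells were G1E-ER4, an immortalised mouse erythroid line from a male, in which Gata1-deficient G1E cells carry a GATA1 protein fused to an estrogen receptor domain, so that estradiol activates GATA1. Both libraries came from cells given 10 nM 17beta-estradiol for 14 h, and they form 1 group of 2 numbered biological replicates that share a biosample record. Their spread may therefore be technical. No untreated sample was analysed here, so the values are levels at 14 h and differences between 2 libraries, not responses to estradiol.

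Glucose enters most cells by facilitated diffusion through GLUT proteins, encoded by the Slc2a genes, and lactate made by glycolysis leaves with a proton through the monocarboxylate transporters (MCT), encoded by Slc16a genes. MCT1 and MCT4 reach the cell surface bound to basigin. Red cells depend on glycolysis once their mitochondria are lost. GLUT1 is the glucose carrier of human red cells, while adult mouse red cells are known to have little of it.

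Expected counts, the estimated numbers of fragments per gene, summed to 38395479 in replicate 1 and 60097379 in replicate 2, so replicate 2 was 1.57 times as deep. A count of 0 allows up to 3 counts, or 0.0781 CPM (counts per 1000000) in replicate 1 and 0.0499 in replicate 2, which covers counting error only. All 8 erythroid markers listed reached 1 TPM in each library, where TPM, the number of transcripts per 1000000, is a level corrected for transcript length. Among them is Gata1, which these cells carry as the introduced fusion, and its reads were not separated by source. Markers of other lineages were at or near 0, with Spi1, a factor of myeloid cells and early erythroid precursors, at 22.28 and 19.74 TPM as the exception.

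Of the 8 genes, 7 were expressed, meaning at least 1 TPM in each library, beside 37.6% of 21474 protein-coding genes. At least 50 TPM in each was reached by 5, beside 9.08%, and 0 were under 0.1 TPM in each, beside 52.3%. Bsg was by far the highest, Slc2a1 was the highest glucose transporter by mean, Slc16a1 the highest lactate transporter, and Slc2a4 was close to 0.

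**Figure D1:**
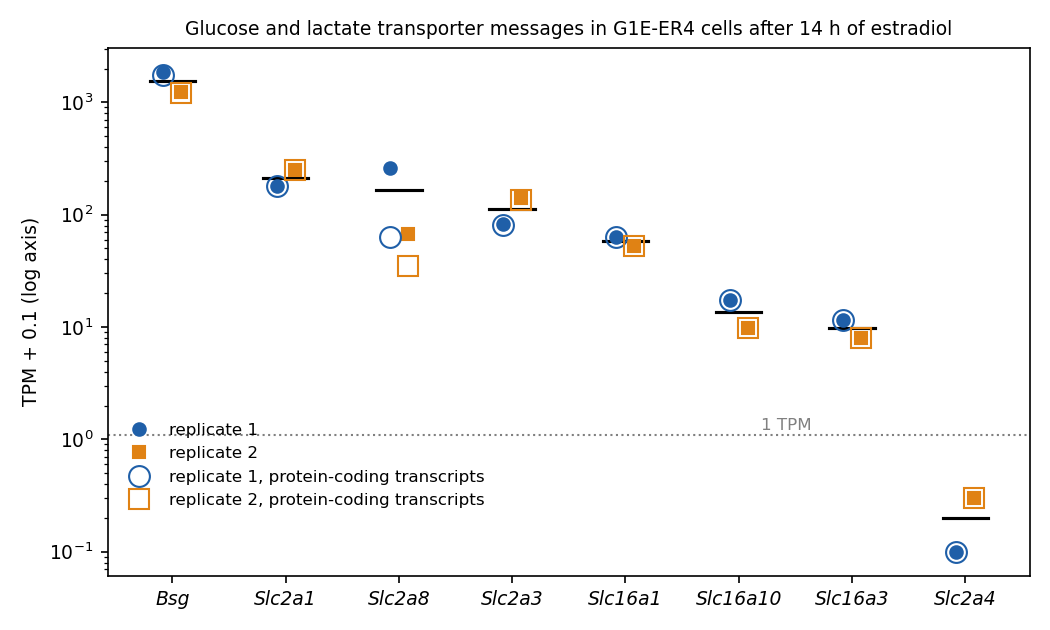
Level of each gene in TPM + 0.1 on a log axis, with replicate 1 (circles) left of replicate 2 (squares), the mean as a bar, and open symbols for protein-coding transcripts alone. Slc2a8 is the gene whose open symbols fall clearly below its filled ones, 63.61 and 35.14 TPM against 262.02 and 66.54 TPM, and Slc2a4 lies below the dotted line at 1 TPM.

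Slc2a1 (ENSMUSG00000028645.6, GRCm38 chromosome 4, 119108711 to 119137983, plus strand), which encodes GLUT1, had 178.23 TPM in replicate 1 and 249.83 TPM in replicate 2, a mean of 214 ± 50.6 (SD, n = 2). The lower value belonged to the shallower library. Slc2a3 (ENSMUSG00000003153.6, chromosome 6, 122727809 to 122801640, minus strand), which encodes GLUT3, a high-affinity glucose carrier known from neurons, had 83.26 TPM in replicate 1 and 139.5 TPM in replicate 2 (mean 111 ± 39.8, SD, n = 2). Slc2a1 exceeded Slc2a3 in both libraries, by 2.14-fold in replicate 1 and 1.79-fold in replicate 2. On the log2 scale of TPM + 0.1 this difference was 0.97 ± 0.18 (SD, n = 2), larger than the spread by the criterion used for pairs, under which the libraries must share a direction and their mean must exceed 2 times the range. The order held in counts not divided by length, but the log2 difference of 0.34 ± 0.18 no longer met the criterion.

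Slc2a8 (ENSMUSG00000026791.10, chromosome 2, 32972990 to 32982083, minus strand) encodes GLUT8, a carrier kept mostly on internal membranes. It had 262.02 TPM in replicate 1 and 66.54 TPM in replicate 2, a mean of 164 ± 138 (SD, n = 2). In replicate 1 it was the highest glucose transporter and in replicate 2 the lowest of the 3 expressed. Its log2 ratio changed direction between libraries against Slc2a1 (Slc2a1 over Slc2a8 was -0.56 in replicate 1 and 1.91 in replicate 2) and against Slc2a3 (Slc2a8 over Slc2a3 was 1.65 and -1.07), so its place in the order is not fixed by these data. Counted over protein-coding transcripts alone, Slc2a8 had 63.61 TPM in replicate 1 and 35.14 TPM in replicate 2, below Slc2a1 and Slc2a3 in both.

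Slc2a4 (ENSMUSG00000018566.10, chromosome 11, 69942539 to 69948188, minus strand) encodes GLUT4, the insulin-regulated carrier of fat and muscle. It had 0 counts in replicate 1 and 5 counts, or 0.2 TPM, in replicate 2, too few for a test. Of 5 adipocyte and muscle markers, Adipoq, Ckm and Myh1 had 0 counts in both libraries, and the list summed to 0 TPM in replicate 1 and 0.25 TPM in replicate 2, that of replicate 2 coming from 13 counts of Acta1 and 6 of Plin1. The few Slc2a4 counts and these few marker counts fell in the same library, and their part in that value was not tested.

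The GLUT family, 12 genes measured, summed to 523.8 TPM in replicate 1 and 456.44 TPM in replicate 2. None of the other 8 members, which include the fructose carrier Slc2a5 and the liver and islet carrier Slc2a2, was expressed, and the highest of them by mean, Slc2a9, known as a urate carrier, had 0.1 TPM in replicate 1, where Slc2a5 had 0.19, and 0.33 TPM in replicate 2. Slc2a8 held 50.02% of the family sum in replicate 1 and 14.6% in replicate 2, and Slc2a1 held 34.0% and 54.7%. Over protein-coding transcripts the shares of Slc2a1 were closer, at 55.1% in replicate 1 and 59.3% in replicate 2.

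**Figure D2:**
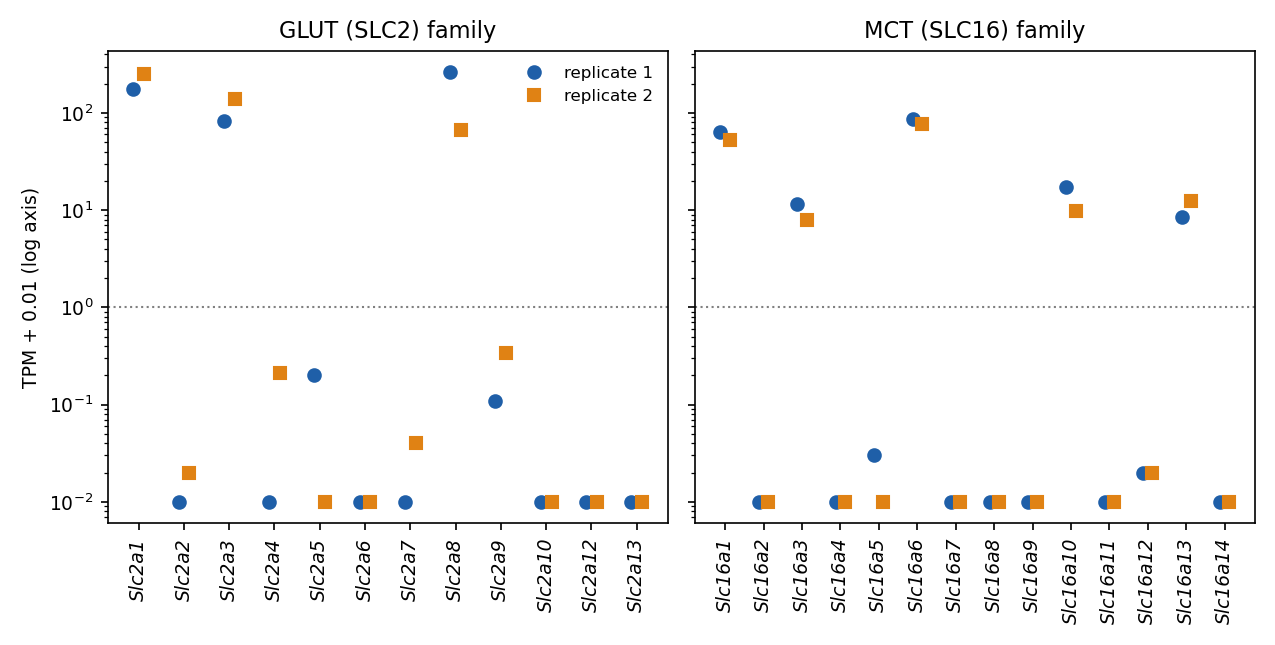
Level of every measured GLUT (left) and MCT (right) family gene in TPM + 0.01 on a log axis, with replicate 1 as circles left of replicate 2 as squares and a dotted line at 1 TPM. Slc2a1, Slc2a3 and Slc2a8 stand apart from the rest of the GLUT family, and 5 MCT family genes lie above the line, with Slc16a6 at 85.69 and 77.45 TPM the highest.

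Slc16a1 (ENSMUSG00000032902.1, chromosome 3, 104638668 to 104658462, plus strand) encodes MCT1, the widely expressed lactate and pyruvate carrier. It had 63.35 TPM in replicate 1 and 52.29 TPM in replicate 2 (mean 57.8 ± 7.82, SD, n = 2), the smallest ratio between the libraries among the 7 expressed genes, at 1.21-fold. Slc16a3 (ENSMUSG00000025161.12, chromosome 11, 120948480 to 120960868, plus strand) encodes MCT4, a lactate exporter known from strongly glycolytic cells, and had 11.43 TPM in replicate 1 and 7.93 TPM in replicate 2 (mean 9.68 ± 2.47, SD, n = 2). Slc16a1 exceeded Slc16a3 by 5.54-fold in replicate 1 and 6.59-fold in replicate 2, a log2 difference of 2.58 ± 0.17 (SD, n = 2), larger than the spread.

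Slc16a10 (ENSMUSG00000019838.10, chromosome 10, 40033532 to 40142258, minus strand) encodes TAT1, which carries aromatic amino acids rather than lactate. It had 17.2 TPM in replicate 1 and 9.76 TPM in replicate 2 (mean 13.5 ± 5.26, SD, n = 2). Slc16a1 exceeded it by 3.68-fold and 5.36-fold, larger than the spread, while Slc16a10 over Slc16a3 was 0.59 in replicate 1 and 0.30 in replicate 2 on the log2 scale, not larger than the spread. Of the 11 other Slc16a genes, 2 were expressed: Slc16a6, at 85.69 TPM in replicate 1 and 77.45 TPM in replicate 2, and Slc16a13, at 8.5 and 12.42 TPM. Slc16a6, whose zebrafish counterpart carries ketone bodies, held 46.0% of the MCT family sum in replicate 1 and 48.4% in replicate 2, more than Slc16a1 at 34.0% and 32.7%. The retinal pigment epithelium carrier Slc16a8 had 0 TPM in both libraries.

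Bsg (ENSMUSG00000023175.11, chromosome 10, 79704491 to 79711969, plus strand) had 1871.97 TPM in replicate 1 and 1244.33 TPM in replicate 2 (mean 1558 ± 444, SD, n = 2), placing it at rank 70 and 102 among the measured protein-coding genes. It exceeded Slc16a1 by 29.5-fold in replicate 1 and 23.8-fold in replicate 2, a log2 difference of 4.73 ± 0.22 (SD, n = 2), and the sum of Slc16a1 and Slc16a3 by 25.03-fold and 20.66-fold. Emb, the basigin relative embigin that pairs with MCT2, had 0 counts in both libraries. Nptn, the relative neuroplastin, had 145.66 TPM in replicate 1 and 181 TPM in replicate 2, and Bsg over Nptn was 3.68 and 2.78 on the log2 scale. Over protein-coding transcripts alone that ratio was 8.77 and 7.11, so most of the Nptn level lay on transcripts of other types.

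In the order of mean TPM, Bsg, Slc2a1, Slc2a8, Slc2a3, Slc16a1, Slc16a10, Slc16a3 and Slc2a4, the neighbours Slc2a1 and Slc2a8, Slc2a8 and Slc2a3, Slc2a3 and Slc16a1, and Slc16a10 and Slc16a3 did not differ by more than their spread. Slc2a3 over Slc16a1 was 0.39 in replicate 1 and 1.41 in replicate 2 on the log2 scale. Of 14 pairs compared, 10 met the criterion, and 3 of these rest on Emb or Slc2a4 at or near 0. In counts not divided by length 8 met it: Slc2a1 over Slc2a3, Slc2a1 over Slc16a1 and Bsg over Slc2a1 were lost, and Slc16a10 over Slc16a3 was gained.

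The transcripts that carried these levels differed in kind. Slc16a1 and Slc16a10 have 1 annotated transcript each, and Slc2a1-201 held 98.72% of Slc2a1 TPM in replicate 1 and 98.86% in replicate 2. Slc2a3-201 held 97.87% and 97.19%. Over the 7 expressed genes the median share of the main transcript was 97.5%. Shares are the quantifier's estimates, because transcripts of 1 gene share reads.

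**Figure D3:**
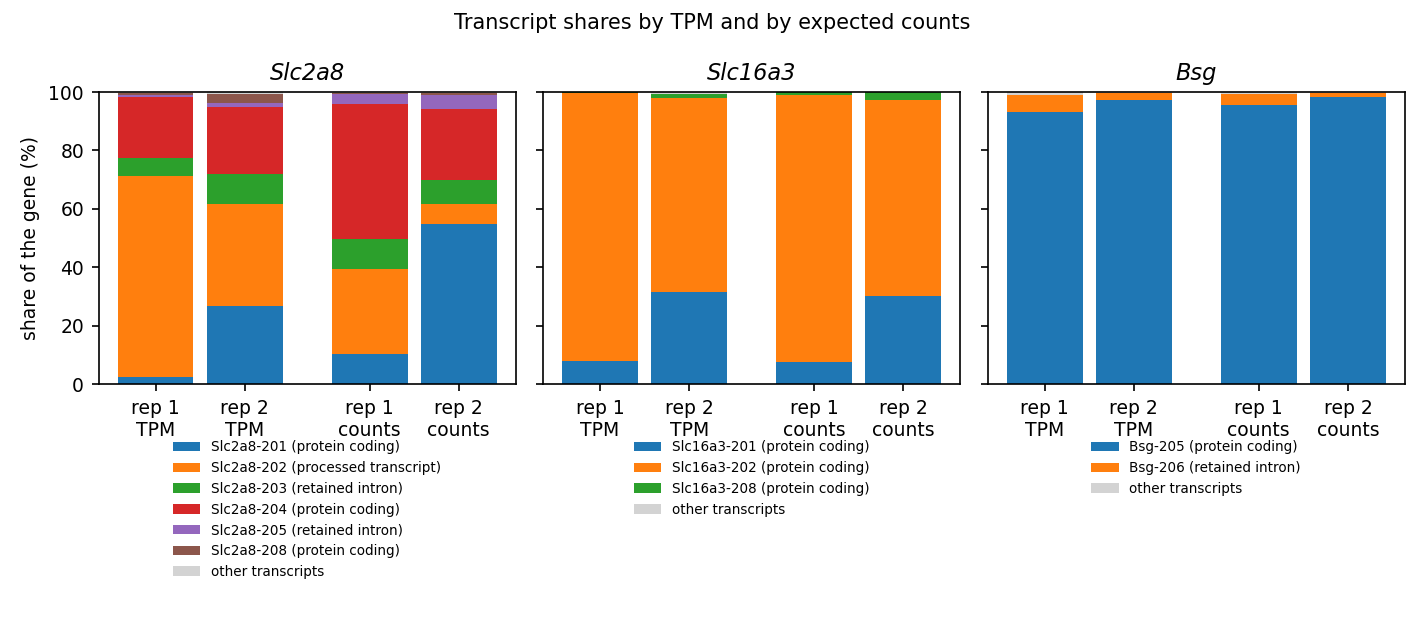
Share of each gene held by its transcripts, in percent, for Slc2a8, Slc16a3 and Bsg, by TPM (left pair of bars) and by expected counts (right pair), replicate 1 left of replicate 2. The 343-base transcript Slc2a8-202 fills 68.76% and 34.91% of Slc2a8 by TPM but 29.2% and 6.87% by counts, whereas the Slc16a3 and Bsg bars look alike on both scales.

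Basigin exists as a common form with 2 immunoglobulin-like domains and a longer form known from retinal photoreceptors that has an additional one. The common form, Bsg-205 (273 residues), held 93.3% of Bsg TPM in replicate 1 and 97.41% in replicate 2. The longer form, Bsg-201 (389 residues), held 0.23% and 0.26%, or 4.25 and 3.25 TPM. Bsg-206, annotated as a retained intron, held 5.69% in replicate 1 and 2.26% in replicate 2. The forms differ by a 348-base exon on chromosome 10, 79708697 to 79709044, which encodes 116 residues and is joined in Bsg-201 but skipped in Bsg-205. The exon ends are shown because they tell the forms apart, with 25 bases on each side of the join and the downstream exon in capitals, from the GENCODE M21 transcripts.
Bsg-205, exon 1 to exon 2: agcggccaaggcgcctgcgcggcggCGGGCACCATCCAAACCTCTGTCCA
Bsg-201, exon 1 to exon 2: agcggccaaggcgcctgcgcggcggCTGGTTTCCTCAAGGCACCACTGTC
Bsg-201, exon 2 to exon 3: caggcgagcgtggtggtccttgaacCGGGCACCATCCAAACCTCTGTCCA

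Slc2a8 was the one expressed gene with most of its TPM outside its full coding transcript. Slc2a8-202, a 343-base processed transcript of 3 exons with no reading frame annotated, held 68.76% of its TPM in replicate 1 and 34.91% in replicate 2. Of its bases, 342 lie inside exons of the full transcript Slc2a8-201, and it leaves out 28 bases at the start of the third exon, 32981540 to 32981567 on chromosome 2. By counts its share was 29.2% and 6.87%. The 477-residue form Slc2a8-201 held 2.44% of the TPM in replicate 1 and 26.71% in replicate 2, or 10.4% and 54.8% of the counts. Slc2a8-204, of 329 residues, held 20.88% and 23.09% of the TPM; it lacks exons 7 and 8 of Slc2a8-201, of 109 and 171 bases. The retained intron form Slc2a8-203 held 6.21% and 10.21%. Protein-coding transcripts together held 24.3% of Slc2a8 TPM in replicate 1 and 52.8% in replicate 2, lower than the 94.3% or more of each of the other 6 expressed genes. For comparison, the main transcript was protein-coding in 80.1% of 8407 protein-coding genes with a mean of at least 1 TPM. The joins that separate these forms are printed in the same way.
Slc2a8-201, exon 2 to exon 3: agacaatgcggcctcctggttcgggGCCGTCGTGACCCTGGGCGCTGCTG
Slc2a8-202, exon 2 to exon 3: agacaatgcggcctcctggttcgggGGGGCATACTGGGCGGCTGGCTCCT
Slc2a8-201, exon 6 to exon 7: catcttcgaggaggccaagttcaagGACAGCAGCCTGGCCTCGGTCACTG
Slc2a8-204, exon 6 to exon 7: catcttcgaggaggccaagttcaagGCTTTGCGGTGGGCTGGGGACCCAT

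Slc16a3 used 2 first exons. Slc16a3-202, which starts at 120949067 on chromosome 11, held 91.51% of Slc16a3 TPM in replicate 1 and 66.32% in replicate 2, and Slc16a3-201, which starts upstream at 120948480, held 8.03% and 31.72%. All 4 annotated coding blocks have the same ends in both, so both encode the same 470 residues. Outside the coding blocks they differ in the start, in the number of exons (5 in Slc16a3-202 and 6 in Slc16a3-201) and in the last base (120959000 and 120958775). The gene had 779 and 954 counts, the fewest among the expressed genes.

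Promoter windows of 300 bases, from 250 before to 50 after the RefSeq start, were available for 5 genes in the RefSeq table (GRCm38.p6). They were searched on both strands for AGATAA or TGATAA (the GATA factor motif), CACCC (bound by KLF1), ACGTG (the core of the hypoxia response element) and CACGTG (the E-box of MYC and of the glucose-responsive MLX factors, which also contains ACGTG). The GATA motif was found in 1 of the 5, Slc16a1, beside 18.6% of 32851 promoters. CACCC was in all 5, Slc2a1, Slc2a8, Slc16a1, Slc16a3 and Slc16a10, beside 57.5%, and ACGTG in Slc2a1, Slc16a1 and Slc16a3, beside 19.6%. CACGTG was in Slc16a1, beside 7.15%. A match describes letters, not a bound site. The windows of Slc16a1, the one with all 4 motifs, and of Slc16a3-202, whose start carried most of the gene, are printed 5′ to 3′ with the matches in capitals on either strand.
Slc16a1, chr3:104638414-104638713, plus strand: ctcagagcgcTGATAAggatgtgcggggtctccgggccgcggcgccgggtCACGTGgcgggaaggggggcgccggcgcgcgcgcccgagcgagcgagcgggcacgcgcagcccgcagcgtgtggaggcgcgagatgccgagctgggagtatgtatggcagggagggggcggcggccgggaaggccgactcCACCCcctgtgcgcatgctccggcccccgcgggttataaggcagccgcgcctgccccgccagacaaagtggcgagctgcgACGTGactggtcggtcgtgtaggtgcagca
Slc16a3, chr11:120948817-120949116, plus strand: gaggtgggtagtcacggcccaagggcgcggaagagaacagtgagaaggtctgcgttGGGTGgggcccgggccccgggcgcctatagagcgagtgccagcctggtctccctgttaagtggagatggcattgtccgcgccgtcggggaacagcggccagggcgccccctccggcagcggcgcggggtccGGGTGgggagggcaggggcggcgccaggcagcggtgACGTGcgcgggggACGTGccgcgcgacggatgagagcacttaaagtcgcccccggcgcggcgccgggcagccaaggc

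The libraries differed from each other at many genes. An exact two-sided binomial test on rounded expected counts, scaled to library size, was run on every gene, and a call needed an adjusted p (Benjamini-Hochberg) below 0.05 together with a 1.5-fold difference. It compares these 2 libraries, not conditions. It called 4664 of 11230 genes, or 41.5%, with 18.7% higher and 22.8% lower in replicate 1. Of the 7 transporter genes that could be tested, 3 were called, or 42.9%, a share near that background.

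Slc2a8 was 1.81-fold higher in replicate 1 (3690 counts) than in replicate 2 (3445 counts), a log2 ratio of scaled counts of 0.86 with a 95% counting interval of 0.79 to 0.93. This holds for the gene as a whole. The full form Slc2a8-201 went the other way, at 6.4 TPM in replicate 1 and 17.78 TPM in replicate 2. Slc2a8-202, at 180.15 and 23.23 TPM, and Slc2a8-204, at 54.71 and 15.37 TPM, were higher in replicate 1. Slc16a10 was 1.67-fold higher in replicate 1 (2748 counts) than in replicate 2 (2780 counts), at 0.74, interval 0.67 to 0.82. Slc2a3 was lower in replicate 1 (9528 counts) than in replicate 2 (28513 counts), at -0.82, interval -0.86 to -0.79. The other 4 tested genes did not reach the fold: Slc2a1 was at -0.56, Bsg at 0.50, Slc16a3 at 0.47 and Slc16a1 at 0.20.

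Slc2a1 lies at the threshold, since it was 1.48-fold higher in replicate 2 here and was called with library sizes scaled to the total (log2 ratio -0.67) or with TMM factors taken over all gene rows (-0.60). The choice between the 2 ways of computing TMM was made with these calls in view. Scaling to the total moved the median of all genes to -0.12, against -0.01 with TMM. GC content moved with the difference for Slc2a8, whose main transcript has 72.0% GC: in the top of 20 bins of GC content the median gene was at 0.57, and with bin medians subtracted Slc2a8 stood at 0.28 and was no longer called (adjusted p = 2.33e-16, exact binomial test), while Bsg, at 0.61, was. That transcript holds the smaller part of the Slc2a8 counts, so the correction was repeated with GC content averaged over each gene's transcripts by counts, which gave Slc2a8 64.6% GC. It then stood at 0.23 and again was not called (adjusted p = 1.70e-11, exact binomial test), and Bsg, at 0.60, was called. The part of GC content in the Slc2a8 difference was not tested. Slc2a1 moved away from the threshold under both GC corrections, to -0.35 with the first and -0.34 with the second, and was not called.

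**Figure D4:**
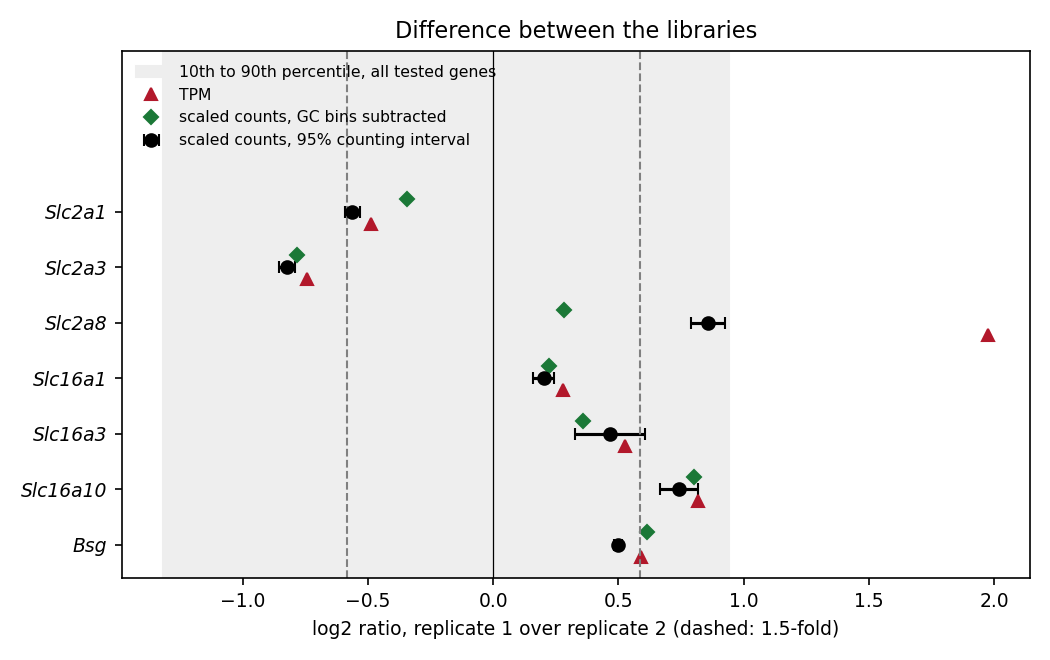
Log2 ratio of replicate 1 over replicate 2 for the 7 tested genes, as scaled counts with 95% counting intervals (black), TPM (red) and scaled counts with GC bin medians subtracted (green), on the range from the 10th to the 90th percentile of all tested genes (grey) with dashed lines at 1.5-fold. The black points run from -0.82 for Slc2a3 to 0.86 for Slc2a8, inside the grey range, which was taken from scaled counts. The TPM value of Slc2a8 is 1.98, and no such range was computed for TPM.

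The enzymes downstream of glucose entry were described by the same measure. Of 16 glycolysis and lactate genes tested, 2 were higher and 10 lower in replicate 1, beside 18.7% and 22.8% of all tested genes. Their median log2 ratio was -0.85, beside -0.01 over all tested genes and 0.47 over the 7 transporter genes, which went both ways. The most abundant by mean was Gapdh, at 2229.77 TPM in replicate 1 and 24671 TPM in replicate 2 and called lower in replicate 1, followed by Aldoa, at 4819.62 and 5966.91 TPM and not called. In replicate 1 Aldoa and Ldha both stood above Gapdh. Over protein-coding transcripts alone Gapdh had 1901.38 TPM in replicate 1 and 7347.24 TPM in replicate 2, so much of its replicate 2 level lay on other transcripts. Ldha, which turns pyruvate into the lactate that MCT proteins carry, had 2513.19 TPM in replicate 1 and 3264.93 TPM in replicate 2 and was called lower in replicate 1, and Ldhb, its partner subunit, had 0 counts in both. Tpi1 had 337.07 TPM in replicate 1 and 2547.21 TPM in replicate 2 and was called lower in replicate 1. Its protein-coding transcripts alone had 200.89 TPM in replicate 1 and 708.8 TPM in replicate 2. The erythroid marker list moved the same way. Of its 8 genes, 6 were lower, Gata1 among them, and 1 higher in replicate 1, beside 22.8% and 18.7% of all tested genes. Its median was -1.07, and its part in these differences was not tested.

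**Figure D5:**
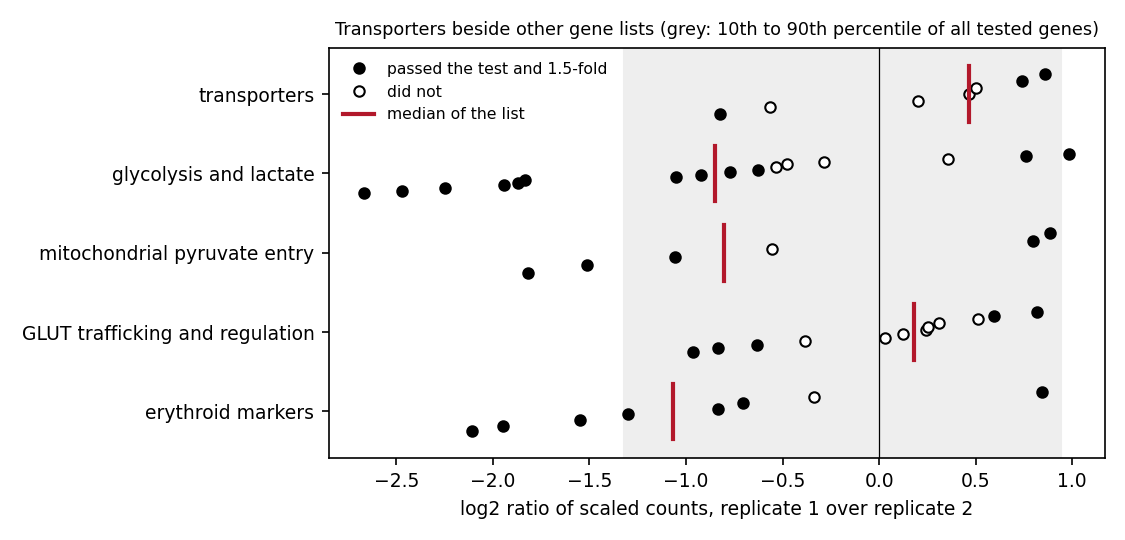
Log2 ratio of scaled counts, replicate 1 over replicate 2, for each tested gene of 5 lists, with filled points for called genes, open points for the rest, a red bar at each list's median and the 10th to 90th percentile of all tested genes in grey. Most glycolysis and erythroid marker genes lie left of 0, with medians of -0.85 and -1.07. Transporter genes lie on both sides of 0, with a median of 0.47.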

How the data were processed

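PolyA-selected RNA was sequenced as paired ends in 2 libraries. The authors deposited gene and transcript tables for build mm10 and, in the deposited notes, GENCODE M4; for the aligner and the quantifier, names and settings were not given in the sources used here. The deposited expected counts divide reads that match several features and need not be whole; the counts of the 8 genes were whole within 0.005. The deposited TPM values are expected counts over effective length, scaled to 1000000, so reads placed on a short transcript give a high TPM. The deposited FPKM divides by length and total fragments. Isoform percent, per the file headers, is a transcript's percent of its gene's TPM.

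Symbols, types and coordinates came from GENCODE M21 on GRCm38, by identifier, for 42462 of 43346 Ensembl rows. The 26345 other rows were left out; they hold 5.21e-06% of replicate 1 (2 counts) and 0% of replicate 2. Deposited lengths of Slc2a1-201 and Slc16a10-201 differ from M21. Whether counting used strand is not given.

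Expected counts were rounded and tested by exact binomial test (scipy 1.17.1) where both libraries summed to 10 counts or more, on sizes scaled by TMM (edgeR 4.0.16), with 0.5 counts added for folds; the script was tested on simulated data. The 95% intervals (Clopper-Pearson) hold counting error alone. With 1 group no test between conditions was possible. Pair ratios used TPM + 0.1. The text names all 8 genes, transcripts of at least 10% in either library, and the highest genes of other lists; Bsg-201, Bsg-206 and some list members were named after their values were seen. Members, lists and tests were chosen with earlier results of these data known. Alternatives covered DESeq2 1.42.0 size factors, other scaling, filters, folds, units and pseudocounts, each library alone, and 3 added after seeing the data: GC bins by main transcript, GC bins by count-weighted transcripts, and TMM over all gene rows.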

Additional observations from a re-analysis of the deposited data

How the results depend on the processing

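No paired analysis was possible because the labels give 1 group. All 7 expressed genes stayed expressed at thresholds of 0.5 and 5 TPM, in FPKM, over protein-coding transcripts and in each library alone. At a fold of at least 2, 0 of the 7 tested transporter genes and 2431 of all genes were called, against 3 and 4664 at 1.5; a higher fold can only lower these counts. Scaling to the total and TMM over all gene rows each called 4 of the 7 transporter genes, adding Slc2a1, beside 4657 and 4649 of 11230 tested genes. The median share of the main transcript was 98.8% by counts, which are not divided by length, and 97.41% to 97.87% in single libraries. The pairs with Slc2a8 changed direction: Slc2a1 over Slc2a8, 0.68 on the log2 scale, was -0.56 without replicate 2 and 1.91 without replicate 1, and Slc2a8 over Slc2a3, 0.29, was -2.21 in counts, -1.15 over protein-coding transcripts, -1.07 without replicate 1 and 1.65 without replicate 2. Neither pair met the criterion in TPM, in counts or over protein-coding transcripts. No other pair and no library ratio of the 7 tested genes changed sign under the alternatives run. The call between the libraries needs both, so it could not be computed without either. Replicate 1 is the shallower library; Slc2a4, with 0 and 5 counts, is the one gene of the 8 below the minimum for a test. With 2 libraries the spread itself is poorly known.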

Other observations

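Genes that control where glucose carriers sit or how much of them is made were measured as well. Of 16 such genes, 11 were expressed, and of 12 tested, 2 were higher and 3 lower in replicate 1, beside 18.7% and 22.8% of all genes. Add2 and Dmtn, the membrane skeleton proteins adducin and dematin, which are known to bind GLUT1 in human red cells, had 218.58 and 175.58 TPM in replicate 1 and 321.89 and 162.95 TPM in replicate 2. Add2 was called lower in replicate 1 (log2 ratio -0.63), and Dmtn, at 0.03, was not called. Stom, which encodes stomatin, a GLUT1 partner in human red cells, had 21.71 TPM in replicate 1 and 26.88 TPM in replicate 2 and was not called. Aspscr1, which encodes the GLUT4 tether TUG, had 220.8 and 212.66 TPM although Slc2a4 itself was near 0. Over protein-coding transcripts alone Aspscr1 had 92.47 TPM in replicate 1 and 67.63 TPM in replicate 2.

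Txnip, which encodes a protein that drives GLUT1 from the cell surface, had 13.86 TPM in replicate 1 and 12.1 TPM in replicate 2, but its scaled counts were lower in replicate 1, at a log2 ratio of -0.84, so TPM and scaled counts differ in direction. Over protein-coding transcripts alone Txnip had 5.08 TPM in replicate 1 and 9.84 TPM in replicate 2, the direction of the scaled counts. Hif1a, the hypoxia factor subunit that activates Slc2a1 and glycolysis genes in low oxygen, had 32.07 TPM in replicate 1 and 19.31 TPM in replicate 2. It was called higher in replicate 1 (0.59), but at 1.51-fold it lies at the threshold, and its call under other scalings was not examined. Mlx, the partner of the glucose sensor MLXIP, was called higher too, at 49.55 TPM in replicate 1 and 18.85 TPM in replicate 2 (0.82). With 61.8% GC, Mlx falls in the top bin of GC content, where the median gene was at 0.57, and its call under the GC corrections was not examined. The related glucose sensor Mlxipl had 0 counts in both libraries.

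Pyruvate that is not made into lactate enters mitochondria through the carrier subunits MPC1 and MPC2. Mpc1 had 10.09 TPM in replicate 1 and 32.59 TPM in replicate 2 and was called lower in replicate 1 (-1.82), whereas Mpc2, at 85.16 and 89 TPM, was called higher in replicate 1 by scaled counts (0.89). Over protein-coding transcripts alone both were lower in replicate 1, Mpc1 at 2.83 and 11.42 TPM and Mpc2 at 29.28 and 82.53 TPM. Of the 4 sodium-coupled sugar or monocarboxylate carriers listed, 0 were expressed, and the highest, Slc5a2, had 0.09 TPM in replicate 1 and 0.04 TPM in replicate 2.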
